A study of Mus musculus with 6 samples.

Results

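The subject is a set of 10 genes of the epithelial-mesenchymal transition, measured in mouse lung metastases of Myc-driven mammary tumours. Of the 10, Zeb1, Zeb2, Snai2 and Twist1 encode transcription factors. Vim, Cdh2 and S100a4 encode an intermediate filament protein, an adhesion protein and a calcium-binding protein. Fn1, Sparc and Tgfbi encode secreted matrix proteins. The genes were selected on their known roles in this transition, in view of earlier results from the KO and Het signals of these same arrays, and are 10 of the 12393 genes with a probe set annotated to a single symbol. A probe set is a group of short probes that reads one transcript. The 10 genes had 19 probe sets, and all 19 are given. The probe set with the highest mean over the 6 arrays is called the main one of its gene. Main probe sets were thus chosen by their measured signal, and their brightness is not a result.

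Each of the 6 arrays measured total RNA from 1 lung metastasis of an FVB mouse carrying MMTV-Myc, a transgene that expresses the Myc oncogene in mammary epithelium. In the label, 3 metastases have the genotype Myc E2F2 KO, and 3 have Myc E2F3 Het. They are called KO and Het here. All 6 share the Myc transgene, the strain and the site, and metastases with intact E2F genes were not analysed here. One number is common to the titles of all 3 Het samples and may mark 1 mouse. Their title endings LM2, LM1 and LM3 belong to Het replicates 1, 2 and 3 here. The ages of the animals are not given in the sources used here. A frozen metastasis holds tumour cells together with whatever lung, vessels, fibroblasts and blood cells were cut out with it.

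In an epithelial-mesenchymal transition, epithelial cells loosen their junctions, switch from keratin to vimentin filaments and secrete matrix. The zinc finger proteins Zeb1, Zeb2 and Snai2 and the helix-loop-helix protein Twist1 are known to drive it by silencing E-cadherin and other junction genes, which they recognise through short E-box motifs. Fibroblasts, endothelial cells and many leukocytes carry Vim, Zeb2, Sparc or S100a4 without any transition, so in whole metastases the RNA of these genes does not name its cell of origin.

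All arrays had a trimmed mean signal of 500.2, and the median signals ran from 137.6 to 164.8. Het replicate 1 had a 3' to 5' signal ratio for actin of 2.38, against 1.48 to 1.73 on the other arrays, and such a ratio is known to rise when RNA is degraded. What part this had in its values was not tested. Epithelial RNA was abundant in each metastasis. Krt8, a keratin of simple epithelia, had signals of 12113, 11425 and 9660.2 in KO and 10637, 11285 and 10990.2 in Het replicates 1 to 3. Sftpd, a surfactant protein gene of the lung, had signals from 1296 to 9996, so lung RNA was present in every sample.

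The known E-box letters can be looked for in the promoters of the genes discussed here. RefSeq promoter windows of GRCm38.p6 were searched over the 250 bases before each start for CACCTG, an E-box recognised by Snai and Zeb proteins, and for TGANTCA, the AP-1 motif, both on either strand, and for TATAAA on the gene's strand. Of the 10 genes, 6 had a window, with 9 windows in all, and Fn1, Cdh2, Snai2 and Zeb1 had none. Of 24 epithelial genes that the factors are known to silence, 16 had a window, and Cdh1, the E-cadherin gene, had none. Windows of the same gene were counted separately, and those of Crb3 and some of those of Zeb2 overlap. CACCTG was present in 12 of 21 epithelial windows, from 10 genes, and in 0 of 9 mesenchymal windows, against 17.2% of all 32851 windows. TATAAA was present in 3 of 9 mesenchymal windows, those of Vim, S100a4 and Twist1, and in 0 of 21 epithelial windows, against 7.59% of all. The AP-1 motif was present in 1 of 9 mesenchymal windows, of Zeb2, and in 1 of 21 epithelial windows, of the tight junction gene Cldn4, against 6.75% of all. A match describes the letters and not binding, and these windows leave out distant enhancers and introns. Epcam and Crb3 are shown as 2 epithelial genes with CACCTG or its reverse complement CAGGTG in capitals. The first lies on chromosome 17 at chr17:87635729-87635978 (+ strand) and the second at chr17:57061951-57062200 (+ strand).
Epcam: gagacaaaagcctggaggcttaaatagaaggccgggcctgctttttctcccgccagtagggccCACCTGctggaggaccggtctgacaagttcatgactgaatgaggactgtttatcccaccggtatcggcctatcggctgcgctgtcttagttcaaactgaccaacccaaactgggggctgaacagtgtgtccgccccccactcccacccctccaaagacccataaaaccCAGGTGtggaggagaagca
Crb3: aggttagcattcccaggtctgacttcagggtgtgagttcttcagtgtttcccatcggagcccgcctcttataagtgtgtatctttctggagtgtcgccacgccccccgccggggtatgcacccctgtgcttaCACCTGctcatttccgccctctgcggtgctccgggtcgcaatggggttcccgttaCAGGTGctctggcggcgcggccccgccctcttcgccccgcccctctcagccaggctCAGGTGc

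Vim and S100a4 are shown because both carry TATAAA, in capitals, at nearly the same distance from the start, 32 and 31 bases before it. The Vim window is chr2:13574061-13574310 (+ strand) and the S100a4 window is chr3:90603520-90603769 (+ strand). Of the 4 windows of Zeb2, the last is shown with its AP-1 matches in capitals, 189 and 132 bases before the start, at chr2:45110278-45110527 (- strand).
Vim: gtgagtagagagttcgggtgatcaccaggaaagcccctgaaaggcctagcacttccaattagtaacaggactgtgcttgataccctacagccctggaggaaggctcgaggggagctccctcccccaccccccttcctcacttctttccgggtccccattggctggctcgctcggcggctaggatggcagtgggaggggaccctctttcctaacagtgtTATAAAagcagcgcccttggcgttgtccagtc
S100a4: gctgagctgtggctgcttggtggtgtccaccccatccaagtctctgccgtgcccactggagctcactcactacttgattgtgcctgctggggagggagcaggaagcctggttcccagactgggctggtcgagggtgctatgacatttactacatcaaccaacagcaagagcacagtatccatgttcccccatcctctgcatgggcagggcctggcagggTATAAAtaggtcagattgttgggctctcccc
Zeb2: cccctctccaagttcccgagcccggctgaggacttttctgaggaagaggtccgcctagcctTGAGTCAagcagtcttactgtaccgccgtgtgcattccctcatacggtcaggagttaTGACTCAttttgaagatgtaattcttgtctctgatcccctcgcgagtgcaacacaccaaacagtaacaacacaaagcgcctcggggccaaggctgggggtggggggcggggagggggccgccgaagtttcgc

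Among the 4 transcription factors, Zeb2 and Twist1 had signals in all 3 KO arrays above those in all 3 Het arrays, while Zeb1 and Snai2 overlapped. Values are MAS5 signals on a linear scale, in the order of replicates 1, 2 and 3, and differences are KO minus Het on the scale log2(signal + 16), which understates the change of dim probe sets. Zeb2, a repressor of E-cadherin that is also present in myeloid and stromal cells, had signals of 159, 127 and 85.7 in KO and 74.8, 35.7 and 63.5 in Het metastases. The lowest KO value stood just above the highest Het value, and within each group the spread reached 0.78 and 0.81 in log2 units. The difference was 0.92 (SE 0.41; limma adjusted p = 0.9999), a fold of 1.9. Twist1 had signals of 12.6, 15.5 and 4.33 in KO and 2.19, 1.67 and 1.72 in Het metastases. These signals are so low that the difference, 0.56, depended on the added constant. It was 1.9 with a constant of 1 and 0.18 with a constant of 64. Whether Twist1 was above background is not known, because detection calls were not used here.

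Zeb1, the other zinc finger E-box repressor, varied most within the KO group. Its signals were 282, 209 and 71.7 in KO and 233, 136 and 166 in Het metastases. KO replicates 1 and 3 were therefore the highest and the lowest of all 6 arrays, with a ratio of 3.4 between them. The difference was -0.08 (SE 0.70; limma adjusted p = 0.9999), and its sign rested on single arrays. It was 0.44 when KO replicate 3 was left out and 0.12 when Het replicate 1 was. The second Zeb1 probe set was dim, with signals of 1.01, 9.02 and 1.51 in KO and 23.6, 1.86 and 17.0 in Het, and it did not follow the main one. Snai2, also called Slug, had signals of 38.8, 101 and 54.4 in KO and 60.8, 18.5 and 38.5 in Het metastases, a difference of 0.55. KO replicate 2 was highest and Het replicate 2 lowest, and the difference was 0.24 without the former and 0.25 without the latter. Snai2 and Twist1 were left out of the test, which skipped the dimmest 40% of the array.

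**Figure D1:**
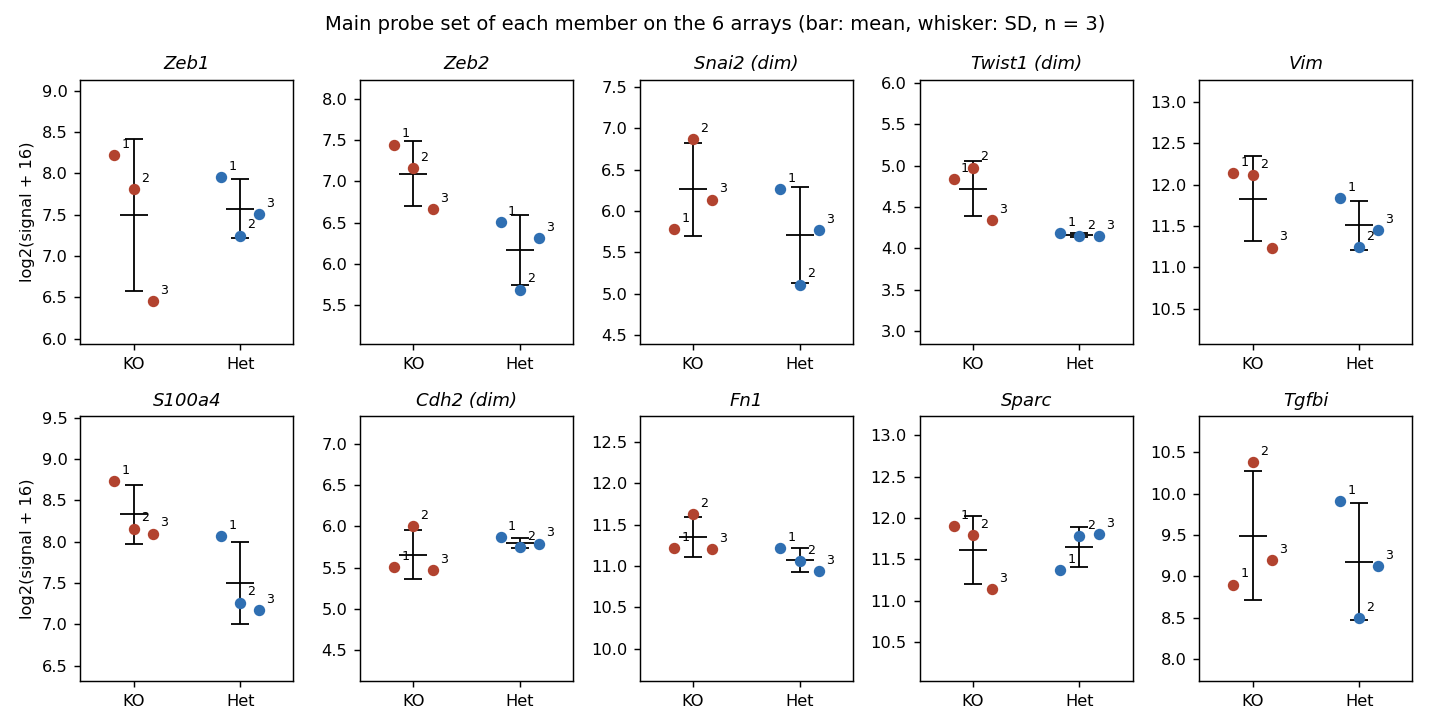
Level of the main probe set of each of the 10 genes as log2(signal + 16), each panel spanning 3.2 log2 units around its own mean; numbered points are replicates, bars the mean and whiskers the SD of 3 arrays. Zeb2, S100a4 and Twist1 have all KO points above all Het points, the other 7 genes overlap, and genes marked dim were below the filter.

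Of the filament, adhesion and calcium-binding genes, S100a4 separated the groups, Vim did not, and Cdh2 was near the floor of the array. S100a4, a small calcium-binding protein also known as fibroblast-specific protein, had signals of 411, 269.7 and 258 in KO and 252, 138 and 128 in Het metastases. KO replicate 3 and Het replicate 1 were nearly equal, so the separation of the groups was narrow. The difference was 0.83 (SE 0.34; limma adjusted p = 0.9999), a fold of 1.78, and it ran from 0.63 without KO replicate 1 to 1.11 without Het replicate 1. Vim, the vimentin filament of mesenchymal cells, had signals of 4500.2, 4411 and 2399 in KO and 3631, 2409.8 and 2776 in Het metastases. KO replicates 1 and 2 stood above the Het arrays, and KO replicate 3 was the lowest of all 6. The difference was 0.32 (SE 0.40; limma adjusted p = 0.9999) and was 0.62 without KO replicate 3.

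The other 2 Vim probe sets gave differences of 0.41 and 0.29, and all 3 placed KO replicates 1 and 2 highest. Het replicate 3 was lowest in the probe set at 0.41, whereas KO replicate 3 was lowest in the other pair. The main Vim probe set has a name ending in x_at, a suffix for probes that may also bind other transcripts. Cdh2, the N-cadherin that replaces E-cadherin in a complete transition, had signals of 29.6, 47.9 and 28.2 in KO and 42.3, 37.6 and 39.3 in Het metastases, a difference of -0.14 with overlapping groups. Its second probe set was lower still, with signals of 4.02, 3.89 and 3.41 in KO and 26.6, 18.9 and 25.5 in Het. This was the 1 probe set of the 19 in which all KO arrays lay below all Het arrays. Both Cdh2 probe sets were dim and untested.

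The 3 matrix genes overlapped between the groups in their main probe sets. Fn1, which encodes fibronectin, had signals of 2362, 3145 and 2341 in KO and 2372, 2123 and 1947 in Het metastases. KO replicate 2 stood out, and the difference was 0.27 (SE 0.25; limma adjusted p = 0.9999) with it and 0.13 without it. The second Fn1 probe set had signals of 157, 175 and 151 in KO and 90.0, 129 and 139 in Het, a difference of 0.40 with no overlap. Sparc, a collagen-binding matricellular protein, had signals of 3808, 3526 and 2238 in KO and 2628, 3504 and 3561 in Het metastases. Its difference was -0.04 (SE 0.34; limma adjusted p = 0.9999), with KO replicate 3 lowest, and it was 0.19 without that array. The second Sparc probe set was at 0.23, so the probe sets of this gene differed in sign.

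Tgfbi, an adhesive matrix protein induced by TGF-beta, had the widest range of the tested main probe sets. Its signals were 461, 1318 and 571 in KO and 944, 344 and 543 in Het metastases, a ratio of 3.71 between the highest and the lowest array. KO replicate 2 and Het replicate 1 were high, and KO replicate 1 and Het replicate 2 were low, so the spread ran within both groups. The ranges were 1.48 in KO and 1.42 in Het, against a difference between groups of 0.32 (SE 0.59; limma adjusted p = 0.9999). Leaving out KO replicate 2 turned it to -0.13, and leaving out Het replicate 2 turned it to -0.02. All 4 Tgfbi probe sets were highest in KO replicate 2, second in Het replicate 1 and lowest in Het replicate 2, and their differences lay between 0.20 and 0.45.

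**Figure D2:**
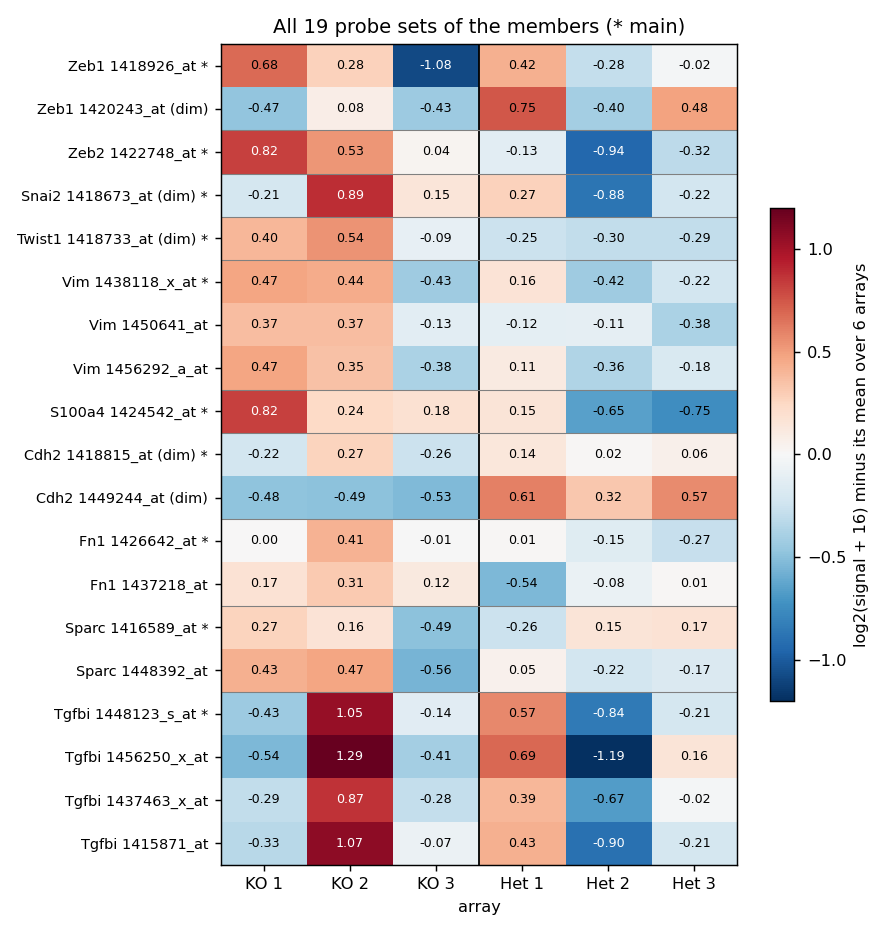
Centred level of all 19 probe sets (rows, by gene, the main one starred) on the 6 arrays (columns), as log2(signal + 16) minus its mean over the arrays; red is above and blue below that mean. The 4 Tgfbi probe sets repeat the same pattern with KO replicate 2 highest, while the Sparc, Zeb1 and Cdh2 pairs differ between their rows.

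None of the 14 tested probe sets of these genes passed limma with Benjamini-Hochberg adjustment at 0.05, with the mean of the 3 Het arrays taken as 1 sample, and 0 had an unadjusted p under 0.05. Over all 13575 probe sets tested, 0 passed (0%) and 2.22% had an unadjusted p under 0.05, so the result for these genes was that of the array as a whole. With each array as a sample, again 0 of the 14 passed, against 0% of all, and 3 of them had an unadjusted p under 0.05, against 10.3% of all. The lowest limma adjusted p of these genes was then 0.396, for Zeb2. The titles of the KO samples carry different numbers, but the labels do not state that each KO metastasis had its own mouse. The p-values therefore reflect the spread among single metastases. This may differ from the spread among mice and may be technical in part. The main probe set was higher in KO for 7 of the 10 genes, and the median difference was 0.32, against -0.02 over all probe sets tested. Leaving out KO replicate 2 lowered this median to 0.16, and leaving out KO replicate 3 or Het replicate 1 raised it to 0.54 or 0.53. All KO arrays lay above all Het arrays for 3 of 10 main probe sets, against 7.47% of all probe sets with no filter, and below for 0 of 10, against 6.94%. Among the 7 tested main probe sets, 2 lay above, against 7.82% of all tested, and 0 below, against 8.91%. The genes were chosen with results of this comparison known, so these counts are a description. In tissue RNA, fewer cells of a type and less RNA per cell cannot be told apart.

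**Figure D3:**
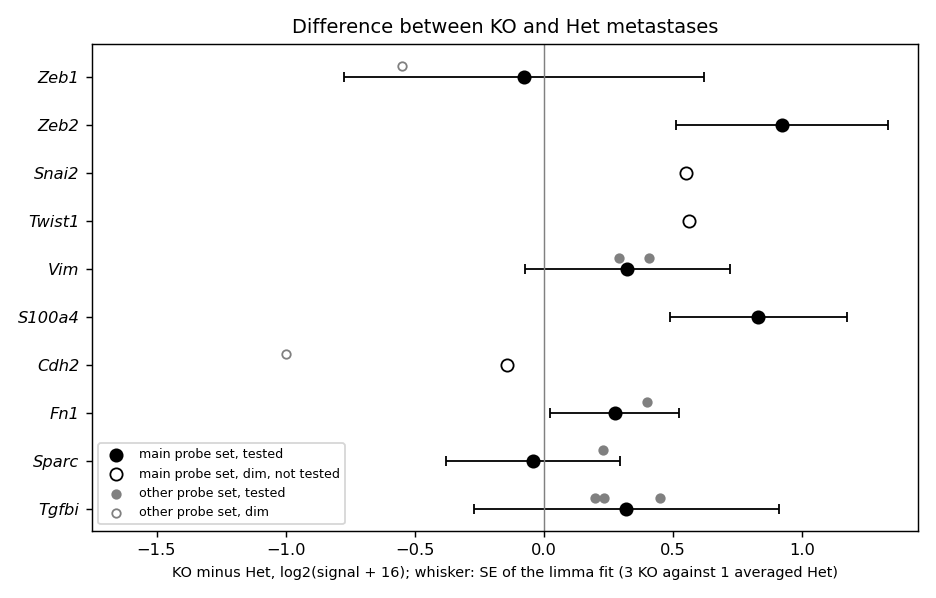
Difference between KO and Het for each probe set, KO minus Het in log2(signal + 16); large points are main and small points other probe sets, open points are dim and untested, and whiskers are the SE of the limma fit of 3 KO samples against 1 averaged Het sample. Zeb2 at 0.92 and S100a4 at 0.83 are the largest of the tested differences, and Zeb1 and Sparc lie near 0.

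The genes also varied between single metastases. Each of the 10 main probe sets was highest in KO replicate 1 or KO replicate 2, with 5 genes in each, against 20.9% and 14.9% of all probe sets tested. The genes were chosen with KO and Het results of these arrays known, so these counts are a description. Snai2, Twist1 and Cdh2 were not among the probe sets tested, so the shares are not fully like for like. Vim, Zeb1, Zeb2, S100a4 and Sparc were highest in replicate 1, and Fn1, Snai2, Twist1, Tgfbi and Cdh2 in replicate 2. The lowest array was KO replicate 3 for Vim, Zeb1, Sparc and Cdh2, and Het replicate 2 for Zeb2, Snai2, Twist1 and Tgfbi. For S100a4 and Fn1 it was Het replicate 3. After centring each gene on its own mean, the median of the 10 genes was 0.34, 0.43 and -0.11 in KO replicates 1, 2 and 3 and 0.14, -0.36 and -0.22 in Het replicates 1, 2 and 3. KO replicate 3 thus lay below Het replicate 1. The range over the 6 arrays exceeded 1 log2 unit for 5 of the 10 main probe sets, Tgfbi, Snai2, Zeb1, Zeb2 and S100a4, against 22.7% of all probe sets tested. Of these genes, Snai2 was untested.

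Other genes of mesenchymal cell behaviour, proteases, integrins and matricellular proteins, were mostly higher in KO, as these genes were. Of 20 genes on the array, 19 had a positive difference, with a median of 0.43, and Itgav, an integrin subunit, was at -0.03 (SE 0.22), while its other tested probe set was at 0.58. All KO arrays lay above all Het arrays for 9 of the 20, against 7.47% of all probe sets, and 0 passed limma with each array as a sample (lowest adjusted p = 0.360). The lists here and below were chosen with earlier results of these data known, so their counts are a description. Cd44, a hyaluronan receptor, had signals of 2419, 2902 and 1735 in KO and 1340.0, 1359.6 and 1337 in Het metastases. The 3 Het arrays were almost equal, and the difference was 0.77 (SE 0.32). Ccn2, a matricellular gene induced by TGF-beta, had signals of 2279.9, 1851 and 1648 in KO and 1483, 1352 and 1072 in Het metastases, a difference of 0.56 (SE 0.26). Msn, which encodes the membrane-actin linker moesin, was at 0.15 (SE 0.28) with overlapping arrays, and its other tested probe set was at 0.75. The summed signal of the list ran from 14972 to 17355 in KO and from 11763 to 12905 in Het metastases. Unlike Vim, Zeb1 and Sparc, the median of this list was higher in KO replicate 3, at 0.06, than in any Het array, at -0.19 to -0.25.

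Further regulators of the transition had 8 of 13 genes with a positive difference and a median of 0.06. This median was -0.06 without Het replicate 3, -0.01 without KO replicate 2 and -0.07 with the dimmest 60% left out, and it was 0.46 with an added constant of 1. The 4 brightest were Sox4 at -0.07 (SE 0.18), Tcf4 at -0.20 (SE 0.46), Ets1 at 0.62 (SE 0.47) and Foxc1 at 0.53 (SE 0.32). The 4 other tested probe sets of Tcf4 were positive, between 0.23 and 0.48, so its main one went the other way. The other tested probe sets of Sox4 ran from -0.58 to 0.76. Snai3, Prrx1 and Hmga2 were the 3 genes of this list with all KO above all Het arrays, and all 3 were dim. These are 3 of 13, against 7.47% of all probe sets, and 0 of 13 lay below, against 6.94%. Snai1, the relative of Snai2, was dim as well and was at -0.65 with overlapping arrays, its signal in KO replicate 2 being 4.08 against 37.5 to 75.2 on the other arrays.

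The TGF-beta pathway, a known inducer of Zeb, Snai and Twist genes and of Tgfbi, went both ways. Of 17 ligands, receptors, SMADs and latent binding proteins, 6 had a positive and 11 a negative difference, with a median of -0.11, which was 0.07 when all probe sets of a gene were averaged. Tgfb3, a ligand, had signals of 847, 1348 and 658 in KO and 1725, 1906 and 2284 in Het metastases, a difference of -1.09 (SE 0.42). All its KO arrays lay below all Het arrays, as did those of the mediator Smad4 at -0.35 (SE 0.22), a count of 2 of 17 against 6.94% of all probe sets. Ltbp3, a latent TGF-beta binding protein, and Skil, a repressor of SMADs, overlapped, at -0.32 (SE 0.22) and -0.00 (SE 0.23), and the other tested probe set of Skil was at 0.37. Tgfb1, the ligand best known for inducing the transition, had signals of 430.1, 243 and 145 in KO and 167, 92.0 and 131 in Het metastases. It was at 0.89 (SE 0.57), with KO replicate 3 inside the Het range. Tgfb2, another ligand, was at -0.71 (SE 0.66) with overlapping arrays, and its other tested probe sets were at -1.21 and -1.13. Smad7, an inhibitory SMAD and a target of the pathway, was the 1 gene of the 17 with all KO above all Het arrays, against 7.47% of all probe sets, at 0.55 (SE 0.30). Tgfbr2, the ligand-binding receptor, was at -0.11 (SE 0.42). The summed signal of the list was 9658 to 12547 in KO and 12839 to 14293 in Het metastases, and 0 genes passed limma with each array as a sample (lowest adjusted p = 0.360). Tgfb1, Tgfb2, Smad7 and Tgfbr2 were named for their roles after their values were seen.

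The epithelial genes that the factors are known to silence had mostly small differences. Cdh1, the E-cadherin gene and classic target, had signals of 3367, 3372 and 3169 in KO and 3629.5, 2682 and 3336 in Het metastases, a difference of 0.05 (SE 0.18). Its lowest value was in Het replicate 2, the array in which Zeb2, Snai2 and Twist1 were also lowest. Of the 24 epithelial genes, 3 were lowest in that array, against 17.7% of all probe sets tested, and 8 were highest in it, against 17.2%. Epcam, an epithelial adhesion protein, had signals of 6427, 5258 and 5857 in KO and 4158, 7450.0 and 5038 in Het metastases, a difference of 0.11 (SE 0.18). Crb3, a polarity protein gene with CACCTG in the window shown above, had signals of 331, 179 and 316 in KO and 319, 313 and 277 in Het metastases. Its difference was -0.17 (SE 0.40), and its other tested probe sets were at -0.004 and 0.28. Krt8, Krt18 and Krt19, keratins of simple epithelia, were at 0.01 (SE 0.17), 0.21 (SE 0.30) and -0.42 (SE 0.32).

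Over the 24 epithelial genes, 9 differences were positive and 15 negative, with a median of -0.11, against -0.02 over all probe sets tested. All KO arrays lay below all Het arrays for 2 of the 24, against 6.94% of all probe sets, and above for 2, against 7.47%. Those below were Esrp2, an epithelial splicing factor, at -0.42 (SE 0.23), and the tight junction gene Tjp3 at -0.81 (SE 0.34). Tjp3 had signals of 182, 267 and 296 in KO and 434, 479 and 404 in Het metastases. Those above were the GTPase gene Rab25 at 0.28 (SE 0.21) and the dim Ovol2, which encodes a repressor of the transition, at 0.61. The median of the list per array stayed between -0.09 and 0.16 after the same centring, a narrower span than the -0.36 to 0.43 of the 10 mesenchymal genes. Such a median hides the range of single genes. Dsp, of this list, had signals from 642 in Het replicate 2 to 2882 in KO replicate 2. Its difference was 0.70 (SE 0.52), and its other tested probe sets were at 0.69 and 1.23.

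Markers of the cell types that a lung metastasis can hold are given beside these values. Fibroblast markers had a positive difference in 14 of 15 genes, with a median of 0.65, and Pdgfra was the exception. All KO arrays lay above all Het arrays for 10 of the 15, against 7.47% of all probe sets. This list was also chosen with earlier results of these data known, so the count is a description. Col1a1, the main fibrillar collagen gene, had signals of 1202, 962 and 885 in KO and 413, 529 and 617 in Het metastases, a difference of 0.95 (SE 0.27), and its other tested probe set was at 0.23. Col1a2 and Col3a1, also fibrillar collagens, were at 0.59 (SE 0.24) and 0.57 (SE 0.30), and Postn, which encodes periostin, was at 0.17 (SE 0.29) with overlapping arrays. The summed fibroblast signal was 8323 to 11759 in KO and 6579.8 to 7013 in Het metastases. Ordered by the array median, the fibroblast list ran from KO replicates 1, 2 and 3 at 0.50, 0.40 and 0.10 to Het at -0.33, -0.35 and -0.34. Zeb2 had the same order of the 6 arrays as this list, and S100a4 differed from it only in the order of Het replicates 2 and 3. The Het medians of the list were nearly equal, so their order carries little weight. Within Het, the centred level ran from -0.13 to -0.94 for Zeb2 and from 0.15 to -0.75 for S100a4. The part of fibroblasts in the difference of Zeb2 and S100a4 was not tested.

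Lung alveolar markers overlapped between the groups, with a summed signal of 13591 to 65238 in KO and 20769 to 32085 in Het metastases, and 11 of 12 genes had a positive difference. Their array medians were 1.24, 0.39 and -0.88 in KO and 0.27, -0.56 and -0.42 in Het replicates 1, 2 and 3. The surfactant genes Sftpa1, Sftpc and Sftpd were at 0.42 (SE 1.38), -0.04 (SE 0.66) and 0.93 (SE 0.93), and the water channel gene Aqp5 was at 1.2 (SE 0.88). The main Vim probe set had the same order of arrays as this list, which the Vim probe set at 0.41 did not share, and Zeb1 differed from it in the order of KO replicate 2 and Het replicate 1. Endothelial markers were highest in KO replicate 1 in 13 of 14 genes, with array medians of 0.77, 0.23 and -0.54 in KO and 0.31, -0.41 and -0.48 in Het, and smooth muscle and pericyte markers had 0.77, 0.13 and -0.41 in KO and 0.11, -0.06 and -0.36 in Het. The summed signals were 2324 to 6074 in KO and 2515 to 4565 in Het for endothelial markers, and 2417 to 5949.8 and 2872 to 3425 for smooth muscle and pericyte markers. Endothelial differences were positive in 13 of 14 genes, with Cldn5, Vwf, Esam and Ramp2 at 0.34, 0.18, 0.37 and 0.36. Smooth muscle and pericyte ones were positive in 7 of 11 genes, with Acta2, Tagln, Rgs5 and Pdgfrb at 0.59, 0.36, -0.07 and 0.03. KO replicate 3, lowest for Vim, Zeb1 and Sparc, was also the lowest array for these 3 lists. Their part in the level of Vim and Zeb1 was not tested.

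Each leukocyte list was highest in KO replicate 2 by its array median. The macrophage list was lowest in KO replicate 3, as were the alveolar, endothelial and smooth muscle lists. The 4 neutrophil markers on the array were all highest in KO replicate 2, with array medians of -0.53, 1.24 and 0.45 in KO and 0.45, -0.61 and -0.57 in Het, and 3 of the 4 had a positive difference. The differences of S100a8, S100a9, Csf3r and the dim Cxcr2 were -0.04, 1.05, 0.27 and 1.52. KO replicate 2 was highest and Het replicate 2 lowest for the median of this list and for Tgfbi. The same held for the medians of the lymphocyte list and of the 10 genes. The summed neutrophil signal was 1337, 8218 and 4607 in KO and 4709, 2052 and 2692 in Het replicates 1, 2 and 3, so by the sum KO replicate 1 was lowest. Macrophage markers had a positive difference in 5 of 13 genes and a summed signal of 7087 to 12599 in KO and 10797 to 13012 in Het metastases, with array medians of -0.27, 0.36 and -0.49 in KO and 0.03, -0.05 and 0.26 in Het. Of the macrophage genes, Cd14, Csf1r, C1qa and C1qb were at -0.48, -0.07, -0.50 and -0.16. All KO arrays lay below all Het arrays for Cd14 and Ms4a7, 2 of the 13, against 6.94% of all probe sets. They lay above for 0 of the 13, against 7.47%. The 9 lymphocyte markers were all dim, with a summed signal of 169 to 436 in KO and 149 to 254 in Het, and 7 differences were positive. Their array medians were 0.11, 0.55 and -0.28 in KO and 0.06, -0.34 and 0.14 in Het, with Cd3g, Cd79b, Ms4a1 and Nkg7 at 0.40, 0.45, 0.47 and 0.24. The part of leukocytes in the Tgfbi pattern was not tested.

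Mammary luminal markers, genes of the milk-secreting epithelium from which the tumours arise, were mostly lower in KO, with a positive difference in 1 of 8 genes and a median of -0.56. Their array medians were -0.49, -0.14 and 0.04 in KO and 0.08, 0.30 and 0.35 in Het replicates 1, 2 and 3, so each KO array lay below each Het array, narrowly so for KO replicate 3 and Het replicate 1. The summed signal ran from 40311 to 56938 in KO and from 56826 to 63522 in Het, a slight overlap. The transcription factor Elf5 was at -0.72 (SE 0.45), and the milk protein genes Wap, Csn2 and Csn3 were at -1.44 (SE 1.16), -0.18 (SE 0.22) and -0.07 (SE 0.19). The other tested probe sets of Elf5, Csn2 and Csn3 were at -0.38, -0.27 and -1.57, so those of Csn3 differed widely. By gene, all KO arrays lay below all Het arrays for 1 of the 8, Gata3, against 6.94% of all probe sets, and above for 1, Foxa1, against 7.47%.

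Mammary basal markers, some of them shared with mesenchymal cells, had a positive difference in 2 of 9 genes, a summed signal of 3863 to 8006 in KO and 6247 to 10209 in Het, and array medians of -0.54, 0.23 and 0.14 in KO and 0.74, -0.49 and 0.07 in Het. Krt5, Krt14, Mylk and Itga6 were at -0.64, -0.54, 0.36 and -0.54. All KO arrays lay below all Het arrays for Itga6 and Lgr5, 2 of the 9, against 6.94% of all probe sets. They lay above for 0 of the 9, against 7.47%. By its medians, the basal list had the arrays in nearly the order of Tgfbi. It differed in the order of KO replicate 2 and Het replicate 1, and of KO replicate 1 and Het replicate 2. Airway markers had a positive difference in 0 of 5 genes, a summed signal of 6172 to 23454 in KO and 17253 to 21945 in Het, and array medians of 0.50, -0.64 and -0.16 in KO and 0.42, 0.16 and 0.01 in Het. Scgb1a1, Scgb3a2, Cyp2f2 and the dim Foxj1 were at -0.71, -0.65, -0.18 and -0.32. Mesothelial markers had a positive difference in 3 of 4 genes, a summed signal of 1286 to 2205 in KO and 907 to 1383 in Het, and array medians of 0.24, 0.02 and -0.06 in KO and 0.29, -0.32 and -0.18 in Het. Krt7, Msln and the dim Upk3b and Wt1 were at 0.53, 0.10, -0.05 and 0.17. Most of the mesothelial sum was Krt7, with signals of 1998, 1040 and 1369 in KO and 1101, 1163 and 727 in Het. The sum thus describes Krt7 more than the other mesothelial markers. No marker of any list was at 0, since the lowest signal on any array was 0.0286. The parts of these 4 lists in the values of the 10 genes were not tested.

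**Figure D4:**
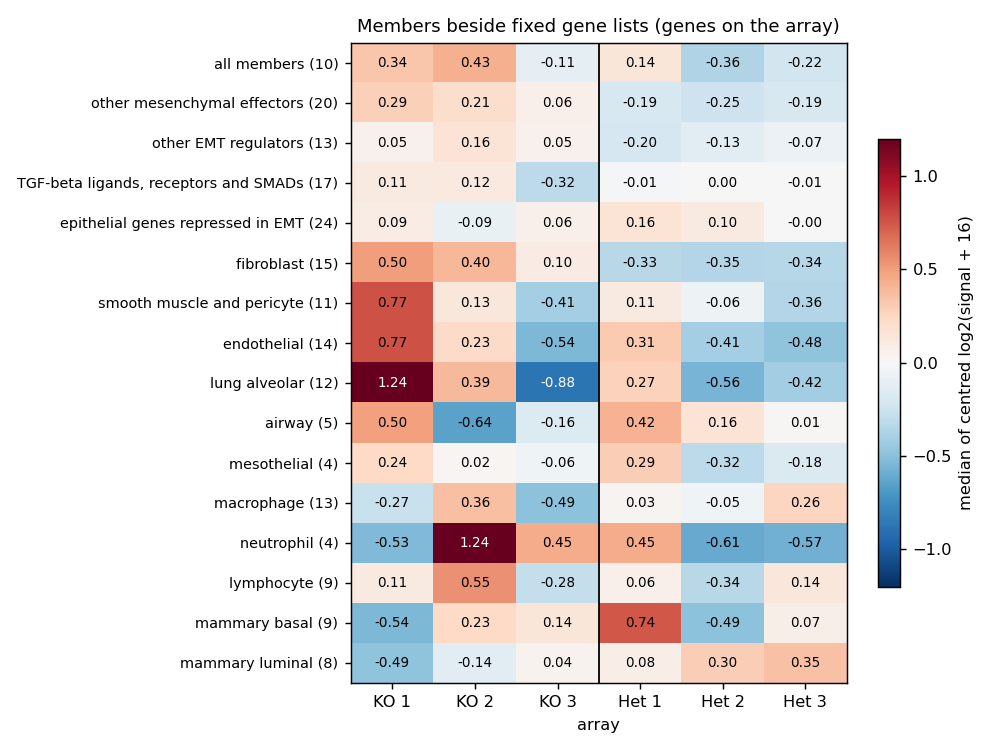
Median of the centred log2(signal + 16) of the 10 genes (top row) and of each fixed gene list (other rows, number of genes on the array in brackets) on the 6 arrays; red is above and blue below the mean of the arrays. The fibroblast row is higher in KO (0.10 to 0.50) than in Het (-0.35 to -0.33), the luminal row is lower in KO (-0.49 to 0.04) than in Het (0.08 to 0.35), the alveolar row spans -0.88 to 1.24, and the epithelial row stays between -0.09 and 0.16.

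For each tested gene, the 3 genes with the most alike profile were found as those with the smallest mean absolute difference between centred log2 levels over the 6 arrays. For Zeb2 they were Dhrs7, Tmem30a and Mef2c, at 0.07, 0.08 and 0.12 log2 units. For S100a4 they were Tle1, Hbegf and Lgals7, at 0.10 to 0.11. For Zeb1 they were Fhl1, Itm2a and Scnn1a, at 0.08 to 0.11, and for Vim they were Ripply3, Slc43a3 and Macf1, at 0.04 to 0.05. For Tgfbi they were the neutrophil marker Csf3r, Aldh1a3 and the cytokine gene Il1b, each at 0.19. Il1b had signals of 80.3, 279 and 123 in KO and 138, 62.3 and 75.7 in Het metastases, highest in KO replicate 2 and lowest in Het replicate 2, as was Tgfbi. For Fn1 they were Ppie, Psma4 and Rab3ip, at 0.04 to 0.06, and for Sparc they were Golph3, Slc23a2 and Cfap36, at 0.03 to 0.07. Of these 21 genes, 1, Csf3r, belonged to a fixed list. They were found among 7957 tested genes over 6 arrays.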

How the data were processed

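Total RNA of 6 lung metastases was hybridised to Affymetrix arrays, and the authors deposited 1 table of probe set intensity values, on a linear scale. MAS5 and Affymetrix Expression Console are named in the submitters' processing notes, without versions. The trimmed mean was 500.2 in every deposited column, so the arrays share a common scale. Arrays have no read depth, and their number limits the precision. Of 22690 probe sets, 64 controls were left out. The platform annotation gave 1 symbol for 20380 probe sets, 20351 of which matched RefSeq (GRCm38.p6) by Entrez ID. Signals were transformed to log2(signal + 16), and tests left out the dimmest 40%, which kept 13575.

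The comparison was fitted in limma (version 3.58.1, R version 4.3.3) by lmFit and eBayes with a trend and Benjamini-Hochberg adjustment. It set 3 KO samples against the averaged Het arrays, assuming that this sample varies like a KO sample. With 3 arrays a side, the smallest p of an exact permutation test is 0.1. The members and lists were chosen with earlier results of these data known. The 15 other lists held 195 genes, 178 of them on the array, each read by its brightest probe set, filtered or not. Of each list, the 4 brightest genes were named. Others were named for their role, where 5 or fewer were counted, or for their range in the case of Dsp, after their values were seen. Of 48 list genes with another tested probe set, 13 had one of the other sign. Alternatives were the unit of replication, a random block, the constant, quantile normalization, the filter, the trend, the mean over probe sets and leaving out each array. The fit was also run on simulated data, in which the Het arrays were independent and had the spread of the KO arrays. Its outcome is not given here and is not used as support.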

Additional observations from a re-analysis of the deposited data

How the results depend on the processing

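Under each alternative, limma called 0 probe sets in KO against Het, with 162 to 1394 at an unadjusted p under 0.05. The extremes were without KO replicate 2 and with each array as a sample. The block by title number gave 677, and 944 passed unadjusted without KO replicate 3, against 301 in the fit as designed. The median difference of the 10 genes stayed positive, from 0.16 without KO replicate 2 to 0.54 without KO replicate 3. Zeb1 ran from -0.44 without KO replicate 1 to 0.44 without KO replicate 3, and was 0.12 without Het replicate 1. Sparc ran from -0.19 without KO replicate 1 to 0.19 without KO replicate 3, and was 0.02 and 0.03 without Het replicates 2 and 3. With the mean over its probe sets, the difference of Sparc was 0.093. Tgfbi ran from -0.13 without KO replicate 2 to 0.68 without Het replicate 1, and was -0.02 without Het replicate 2. The cause was not tested. The other 7 genes kept their sign under the alternatives run. The number of genes without overlap was 3, all higher in KO. It was 5 without Het replicate 1, where Fn1 and Snai2 joined, 4 without KO replicate 3, where Vim joined, and 4 without KO replicate 2, where Cdh2 joined as lower in KO. It was 5 with the mean over probe sets, where Fn1 joined as higher and Cdh2 as lower, and 3 under the other alternatives run. No paired analysis was possible because the labels give no replicate numbers shared between KO and Het. Het replicate 1 was the array with the raised 3' to 5' ratio. Signal over background could not be judged for Twist1, Cdh2 and Snai2.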
